A study of Mus musculus with 4 samples.

Results

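The gliogenic switch and oligodendrocyte precursor genes examined here were 10 genes that mark or drive the change from making neurons to making glia in the embryonic brain. They were chosen by name as Nfia, Nfib, Nfix, Gfap, Aldh1l1, Olig1, Olig2, Sox10, Pdgfra and Cspg4, and all 10 were found among the 26433 genes of the count table. RNA from the cerebral cortex of mouse embryos at embryonic day 15 was sequenced, and 4 libraries were analysed, 2 from conditional knock-in embryos (cKI) and 2 from wild-type littermates (WT). The cKI embryos carried human SERPINA3 with a 3×flag tag in the Rosa26 locus, behind the CAG promoter and a loxP-flanked STOP cassette that Cre expressed from the Nestin promoter removes, so expression was limited to Nestin-positive cells and their descendants. The labels name the strain of both groups as C57BL/6. The methods trace the knock-in allele to 2 founders that were bred with B6D2F2 mice and then to Nestin-Cre mice on C57BL/6, so the genome around the allele need not be C57BL/6. Whether the WT embryos carried the loxP allele or the Cre alone is not given in the sources used here. The labels call the tissue cortex and the methods call it telencephalic tissue, which is the wider region. The comparison asks whether these glial genes differ at this age in a cortex that expresses human SERPINA3.

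The 4 libraries are named KI2 and KI3 for cKI and WT1 and WT3 for WT. They held 17736663, 18119444, 17615212 and 17423512 counted reads in that order. Levels are given as CPM, the counts scaled to these totals, and 3 reads, taken as the limit of detection, corresponded to 0.166 to 0.172 CPM. Intervals on single counts cover counting error only. The methods define replicates in mouse experiments, in general terms, as different embryos, and the labels do not say from which embryos these libraries came, so p-values measure the spread between these libraries. Markers of cortical neurons were abundant in all libraries, with Tubb3, a neuronal tubulin, at 33712 and 33845 reads in cKI and at 31370 and 35485 reads in WT. Of the 11 cortical markers 0 differed at an adjusted p under 0.05 (edgeR's quasi-likelihood test), and 1, Emx2, named after its values were seen, was higher in cKI at an unadjusted p under 0.05. Xist, the RNA that silences an X chromosome in females, had 13223 and 11882 reads in cKI and 5 and 5 in WT, and the Y-linked genes Kdm5d, Eif2s3y, Ddx3y and Uty had at most 1 read in each cKI library and at least 214 in each WT library. All 5 sex-linked genes passed the adjusted threshold, so genotype and sex-linked differences cannot be told apart in any comparison of these groups.

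In the developing cortex, radial glia first produce neurons and later, after a switch in competence, astrocytes and oligodendrocytes. The NFI transcription factors, together with SOX9 and with JAK and STAT signaling downstream of cytokine receptors, open and activate astrocyte genes such as Gfap. Oligodendrocyte precursors arise first in the ventral telencephalon and later in the cortex itself, and they depend on OLIG2 and SOX10 and on signaling through the PDGF receptor alpha.

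None of the 10 genes differed between cKI and WT at an adjusted p under 0.05 by edgeR's quasi-likelihood test, and DESeq2 also gave 0. Over all genes the same test called 19 of 15786, or 0.120%, so a count of 0 among 10 genes is near that background. The count over all genes was 52 without KI2, 46 without KI3, 49 without WT1 and 71 without WT3, with the lone library of a group then assumed to vary like the others, and the count among the 10 was 0 except without WT1, where it was 1. At an unadjusted p under 0.05 there was 1 of the 10, Aldh1l1, against 4.60% of all tested genes. By direction, 2.26% of all tested genes were higher and 2.34% lower in cKI, the shares beside which the counts of all lists stand. The groups did not overlap in CPM for 4 of the 10, namely Nfix and Gfap, higher in cKI, and Nfia and Aldh1l1, lower, against 33.9% of all tested genes. The median log2 fold change of cKI over WT was -0.09 over the 10 genes and 0.00 over all tested genes, with 2 estimates above 0 and 8 below, and the median over the 10 was 0.02 without KI3. All 10 passed the filter on low counts. With 2 libraries against 2, an exact permutation test of any single value cannot go below p = 0.333, so single genes were tested only in the fit across all genes.

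**Figure D1:**
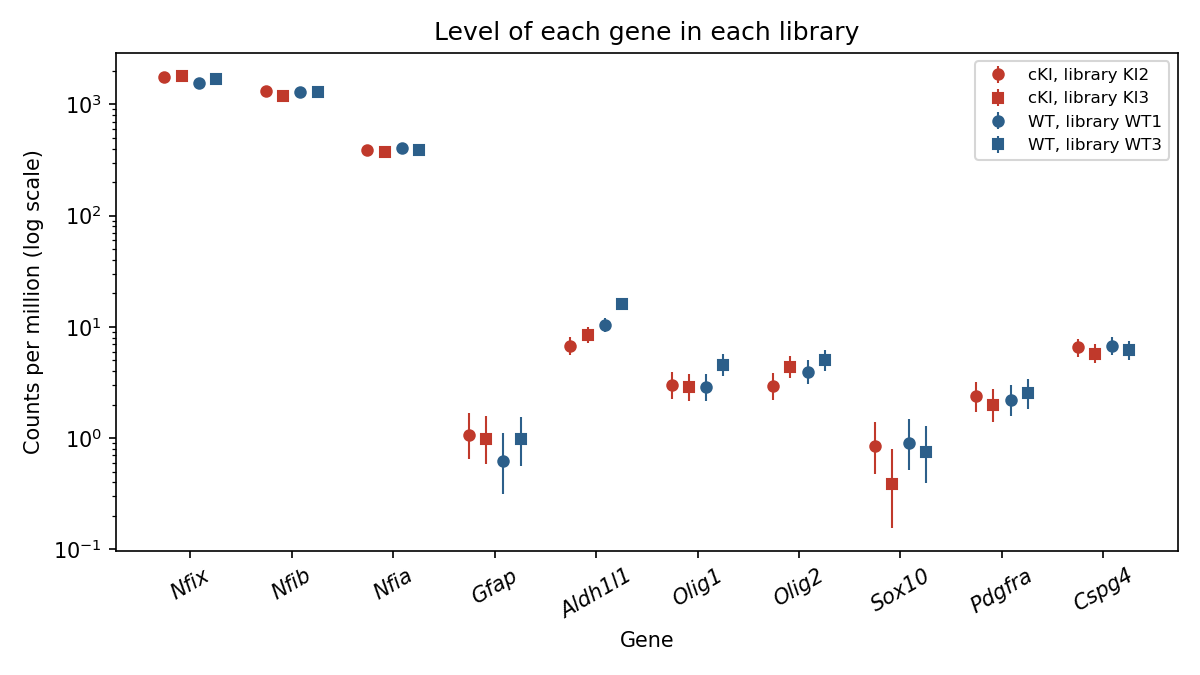
Level of the 10 genes in each of the 4 libraries, as CPM on a log axis, with exact Poisson 95% intervals that cover counting error only; red is cKI and blue is WT. The NFI genes lie between 374 and 1790 CPM, the other 7 genes at or under 16.2 CPM, and Aldh1l1 is the gene whose libraries are spread most visibly between the groups.

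The 3 NFI factors, which bind DNA as dimers and act early in the switch, were by far the most abundant of the 10 per kb. Nfix (ENSMUSG00000001911, minus strand of chromosome 8, 84699876 to 84800344 in GRCm38) had 31248 and 32442 reads in cKI and 27332 and 29517 in WT. Both cKI libraries lay above both WT libraries, and the WT libraries lay further apart than the cKI libraries. The level was 1776 ± 20.3 CPM in cKI and 1623 ± 101 CPM in WT (mean ± SD, n = 2 each). The log2 fold change of 0.14 (SE 0.07, 95% interval -0.02 to 0.29, adjusted p = 0.969) did not pass the threshold. In percent, this interval runs from -1.6% to 22.7%.

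Nfib (ENSMUSG00000008575, minus strand of chromosome 4, 82290173 to 82705750) had 23417 and 21306 reads in cKI and 22903 and 22387 in WT. The cKI libraries held both the highest and the lowest value, with the WT libraries between them. The difference was a log2 fold change of -0.04 (SE 0.08, 95% interval -0.22 to 0.13, adjusted p = 0.994), and 0.04 without KI3. Nfia (ENSMUSG00000028565, plus strand of chromosome 4, 97772734 to 98118874), the member of the family whose onset accompanies the acquisition of glial competence, had 6883 and 6768 reads in cKI and 7063 and 6764 in WT. Scaled to the library totals, WT1 was highest and KI3 lowest, and KI2 and WT3 both rounded to 388 CPM, so the groups were apart by less than that rounding. The difference was a log2 fold change of -0.05 (SE 0.07, 95% interval -0.21 to 0.12, adjusted p = 0.993). For Nfia and Nfib the 95% intervals end at 8.6% and 9.4% higher and at changes of -13.6% and -14.1%, so larger differences lie outside them.

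Per kilobase of exon, Nfix was first of the 10 genes at 242 ± 2.76 CPM per kb in cKI and 221 ± 13.7 in WT. Nfib followed at 83.4 ± 6.83 in cKI and 86.4 ± 0.724 in WT, and Nfia at 35.0 ± 0.944 and 36.2 ± 0.828. These levels placed the 3 genes above 99.2%, 96.7% and 90.3% of the 15765 tested genes with a known length. The other family member, Nfic, was lower at a mean of 11.7 CPM per kb over the libraries, with 1384 and 1456 reads in cKI and 1267 and 1378 in WT. Of the summed level per kb of the 4 NFI genes, Nfix made up 63.9% and 66.1% in cKI and 61.1% and 63.3% in WT. The share of Nfix was higher in both cKI libraries, but KI2 and WT3 lay closer together than the libraries of either group did. Nfib made up 23.5% and 21.3% in cKI and 25.1% and 23.6% in WT. The 4 genes summed to 375 and 369 CPM per kb in cKI and to 346 and 364 in WT.

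Several genes overlap the NFI genes, and the strand setting of the read counting is not given in the sources used here. Reads on exon bases that such a pair shares therefore cannot be told apart. Inside Nfib lie Gm11266, an antisense RNA with 1077 and 1082 reads in cKI and 950 and 1051 in WT, and Gm11267 and n-R5s188, with at most 6 reads in any library. Each of these shares 0 exon bases with Nfib. Nfix shares 137 exon bases with G430095P16Rik on the other strand (13 and 25 reads in cKI, 26 and 4 in WT) and 4 with Lyl1. E130114P18Rik meets the start of Nfia on the other strand with 4 shared exon bases and had 886 and 1005 reads in cKI and 881 and 864 in WT. All of these counts were below those of the NFI gene concerned, and with the reads of overlapping genes of the other strand added no NFI gene changed its direction or its side of the threshold.

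The 2 astrocyte genes differed in depth, and their estimates had opposite signs, with neither past the adjusted threshold. Gfap (ENSMUSG00000020932, minus strand of chromosome 11, 102887336 to 102900912), the intermediate filament of mature astrocytes, had 19 and 18 reads in cKI and 11 and 17 in WT. Both cKI libraries were above both WT libraries by a margin of 1 or 2 reads over WT3, and WT1 was the low library. The counting intervals of all 4 overlapped, from 0.312 to 1.12 CPM in WT1 to 0.645 to 1.67 CPM in KI2. This gave a log2 fold change of 0.37 (SE 0.42, 95% interval -0.58 to 1.32, adjusted p = 0.988). The estimate was smaller than its SE, and the part of read depth in that SE was not tested. By the mean over all libraries, Gfap was last of the 10 genes per kb of exon union and 8th per kb of its longest transcript. Per kb of exon union it stood at 0.245 ± 0.013 CPM per kb in cKI and 0.190 ± 0.0589 in WT, and in cKI alone it stood above Pdgfra and Sox10. The lincRNA Gm26668 spans Gfap on the other strand without shared exon bases and had 18 and 13 reads in cKI and 8 and 16 in WT.

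Aldh1l1 (ENSMUSG00000030088, plus strand of chromosome 6, 90486427 to 90600203), a folate enzyme that marks astrocytes and also radial glia, had 119 and 154 reads in cKI and 183 and 282 in WT. This was 6.71 and 8.50 CPM in cKI and 10.4 and 16.2 CPM in WT. Both cKI libraries were below both WT libraries, and WT3 stood above the other 3. The counting intervals of KI3 (131 to 180 reads) and WT1 (157 to 212 reads) overlapped, while that of WT3 (250 to 317 reads) overlapped with none. The mean was 7.60 ± 1.27 CPM in cKI and 13.3 ± 4.10 CPM in WT (SD, n = 2 each). The log2 fold change was -0.80 (SE 0.23, 95% interval -1.31 to -0.29), the unadjusted p from edgeR's quasi-likelihood test was 0.0062 and the adjusted p was 0.876, so the gene was not called. Without WT1 the estimate was -1.08 with an adjusted p of 0.012, the only left-out library that gave a call. Over the libraries left out in turn the estimate lay between -1.08 and -0.44, and its adjusted p between 0.012 and 0.709. Of the 31-base words of its exons 11.4% occur in another gene, most of them in Gm15756, a gene of the other strand that was not analysed here. Gm44236, inside Aldh1l1 on the same strand, had 2 reads in KI3 and 0 in the other libraries.

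The 8 radial glia markers were compared beside Aldh1l1, because radial glia also express it. Their summed level was 2224 and 2380 CPM in cKI and 2224 and 2369 CPM in WT, 0 of 8 passed either the adjusted or the unadjusted threshold, and Fabp7 was the most abundant per kb. The sums were nearly level between the groups, while Aldh1l1 was lower in both cKI libraries. Within each group the library with the higher sum also had more Aldh1l1, an order that rests on 2 libraries each. The part of radial glia in the Aldh1l1 values was not tested. Choroid plexus markers, among them Ttr, summed to 9.47 and 61.0 CPM in cKI and 2.10 and 4.08 CPM in WT. Of 4 tested out of 5, 0 passed the adjusted threshold and 2, Ttr and Aqp1, the latter named after its values were seen, were higher at an unadjusted p under 0.05. Their most abundant gene per kb, Ttr, which encodes transthyretin, had 116 and 956 reads in cKI and 0 and 4 in WT, while Kcnj13 had at most 1 read in any library. The adjusted p of Ttr was 0.115, from 1.89e-11 with the likelihood ratio test to 0.35 over the 8 alternatives that kept all libraries, and at most 0.0098 when any 1 library was left out (2.53e-11 without KI2, 3.95e-06 without KI3, 0.00888 without WT1 and 0.0098 without WT3). Aqp1 had 30 and 65 reads in cKI and 15 and 12 in WT, with an adjusted p of 0.663, or 0.0268 without KI2, and from 0.0525 to 0.999 over the alternatives that kept all libraries. Folr1, at 9 and 20 reads in cKI and 3 and 16 in WT, and Otx2, at 13 and 64 in cKI and 19 and 39 in WT, both named after their values were seen, overlapped between the groups and changed sign when 1 library was left out. Without Ttr the list summed to 2.93 and 8.28 CPM in cKI and 2.10 and 3.85 CPM in WT, so the sum in KI2 was above that in WT3 only with Ttr. The part of choroid plexus tissue in the values of Gfap and Aldh1l1 was not tested.

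**Figure D2:**
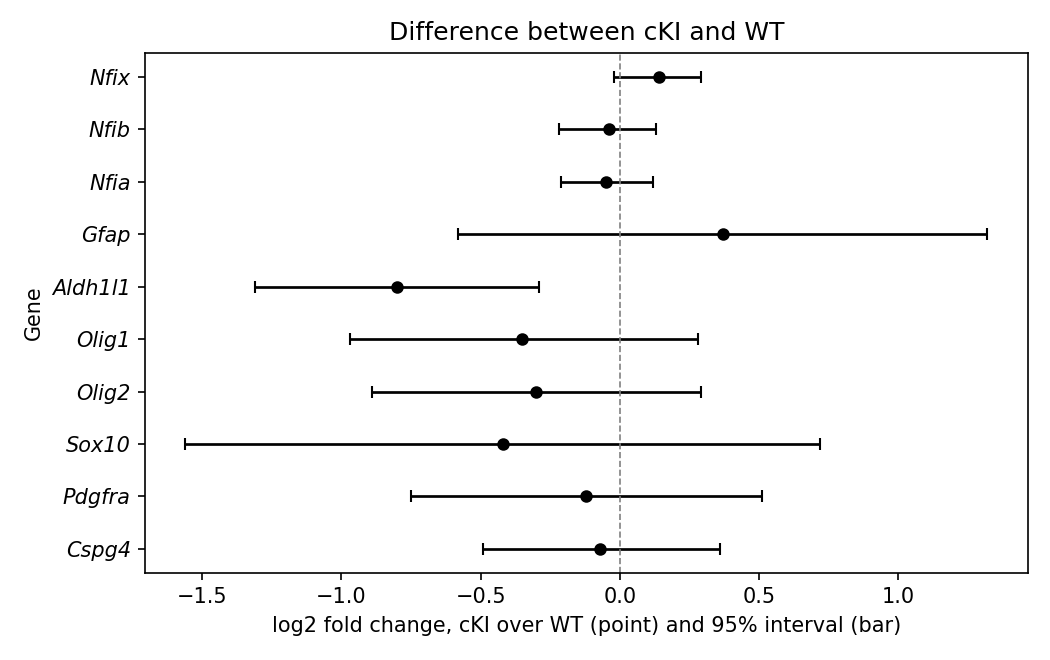
Log2 fold change of cKI over WT for the 10 genes from edgeR's quasi-likelihood fit across all tested genes, with 95% intervals as bars and the dashed line at no difference. The 3 NFI genes have the narrowest intervals, Sox10 and Gfap the widest, and the interval of Aldh1l1 (-1.31 to -0.29) is the only 1 of the 10 that does not include 0 before adjustment.

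The oligodendrocyte lineage factors were present at low levels. Olig2 (ENSMUSG00000039830, plus strand of chromosome 16, 91225550 to 91228677), the basic helix-loop-helix factor that specifies the lineage and is also made by ventral progenitors, had 52 and 79 reads in cKI and 70 and 88 in WT. KI2 was lowest and WT3 highest, with KI3 and WT1 between them, so the groups overlapped. The log2 fold change was -0.30 (SE 0.26, 95% interval -0.89 to 0.29, adjusted p = 0.976). Olig1 (ENSMUSG00000046160, plus strand of chromosome 16, 91269772 to 91271933), its paralog, had 53 and 52 reads in cKI and 51 and 80 in WT. WT3 alone was high and the other 3 libraries lay within 2 reads of each other. In the fit its log2 fold change was -0.35 (SE 0.28, 95% interval -0.97 to 0.28, adjusted p = 0.974), and without WT3 it was 0.02.

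Olig1 and Olig2 lie 41.1 kb apart on the same strand, and 0 genes of the table lie between them. Per kb, Olig2 stood at 1.44 ± 0.399 CPM per kb in cKI and 1.78 ± 0.301 in WT, and Olig1 at 1.35 ± 0.0387 and 1.73 ± 0.555. The ratio of Olig1 to Olig2 per kb was 1.19 and 0.77 in cKI and 0.85 and 1.06 in WT, so neither gene was consistently above the other. Of the 31-base words of Olig1, 5.96% occur in Gm15966, a gene of the other strand that was not analysed here, and Olig2 shares none.

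Sox10 (ENSMUSG00000033006, minus strand of chromosome 15, 79154913 to 79164490), which keeps cells in the oligodendrocyte lineage and also marks peripheral glia, had 15 and 7 reads in cKI and 16 and 13 in WT. KI3 was the low library and KI2 was level with the WT libraries. The counting interval of KI3, 0.155 to 0.796 CPM, overlapped with those of the other 3. The log2 fold change was -0.42 (SE 0.51, 95% interval -1.56 to 0.72, adjusted p = 0.990), the widest interval of the 10 genes, and without KI3 it was 0.04. Of the 4 peripheral glia markers 1, Pmp22, was tested, at 83 and 109 reads in cKI and 98 and 120 in WT, and 0 passed either threshold. Foxd3 and Erbb3 had at most 5 reads in any library. The list summed to 5.24 and 6.24 CPM in cKI and 5.85 and 7.29 CPM in WT, mostly from Pmp22, which other cells make as well.

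The sum of the ventral telencephalon markers was lowest in KI2 and highest in WT3. Olig2 had the same lowest and highest library, and so did Aldh1l1, at 6.71 CPM in KI2 and 16.2 CPM in WT3. Olig1 was highest in WT3 but lowest in KI3, at 2.87 CPM against 2.99 CPM in KI2. With 4 libraries such an order was not read as a match. The summed level of the ventral markers was 240.0 and 255.6 CPM in cKI and 249.7 and 319.3 CPM in WT. Dlx1 was the most abundant per kb, at 1737 and 1961 reads in cKI and 1781 and 2248 in WT. Of 11 tested out of 13, 0 passed the adjusted threshold, 1 was higher and 2 were lower in cKI at an unadjusted p under 0.05. Chosen after their values were seen, the 3 were Nkx2-1 (19 and 17 reads in cKI, 6 and 3 in WT), Dlx2 (437 and 609, 679 and 862) and Six3 (5 and 34, 31 and 112). Gsx2 had 2 and 28 reads in cKI and 29 and 40 in WT, and Isl1, also named after its values were seen, had 1 and 30 in cKI and 21 and 32 in WT. KI2 thus had at most 5 reads of Gsx2, Isl1 and Six3, and the other libraries had at least 21 of each. Other genes of the list, also named after their values were seen, differed in this. Dlx5 had 188 and 281 reads in cKI and 211 and 319 in WT, and Dlx6 had 14 and 29 in cKI and 16 and 46 in WT. Lhx6 had 1101 and 919 reads in cKI and 962 and 1044 in WT, Gad1 had 382 and 367 in cKI and 320 and 401 in WT, and Lhx8 had 5 reads in KI2 and 0 in the other libraries. Of the 11 tested markers KI2 was lowest in 7 and highest in 2, WT3 was highest in 9, and 9 had an estimate below 0. The estimates of Dlx1, Dlx5, Dlx6, Isl1, Lhx6 and Gad1 changed sign when 1 library was left out. The adjusted p of Gsx2 was 0.969 with all libraries and 0.0243 without KI3, where KI2 stood alone for cKI, and 0.889 to 1.0 over the 8 alternatives that kept all libraries. For Dlx2 it was 0.777 with all libraries, 0.0332 without KI3 and 0.0244 without WT1, and for Six3 0.969, 0.0264 and 0.0353, with ranges over the alternatives that kept all libraries of 0.14 to 0.948 and 0.694 to 0.999. How much ventral tissue each library held, and its part in the values of Olig1 and Olig2, was not tested. In bulk tissue, fewer cells of a type and less RNA per cell cannot be told apart, for these genes as for the others.

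Of the surface proteins of oligodendrocyte precursors, Pdgfra (ENSMUSG00000029231, plus strand of chromosome 5, 75152292 to 75198215), the receptor for the mitogen PDGF-A, had 42 and 36 reads in cKI and 39 and 44 in WT. The groups overlapped, with KI3 lowest and WT3 highest. The log2 fold change was -0.12 (SE 0.28, 95% interval -0.75 to 0.51, adjusted p = 0.994), and 0.01 without KI3. Pdgfra is also made by meningeal fibroblasts, whose markers summed to 24.8 and 21.7 CPM in cKI and 11.1 and 13.1 CPM in WT. Of 6 tested out of 9, 4 were higher in cKI at an unadjusted p under 0.05, against 2.26% of all tested genes, and 0 at the adjusted threshold. Foxc1, named after its values were seen, was the only tested marker of the list with an estimate below 0, at 26 and 38 reads in cKI and 53 and 35 in WT and a log2 fold change of -0.49. The most abundant per kb was Ptgds, at 50 and 26 reads in cKI and 17 and 27 in WT. The 4 genes, chosen after their values were seen, were Col1a1 (82 and 64 reads in cKI, 10 and 28 in WT), Col1a2, Col3a1 and Dcn. The adjusted p of Col1a1 was 0.400 with all libraries, 0.0377 without KI3 and 0.00823 without WT3, and from 0.00295 with the likelihood ratio test to 0.831 over the 9 alternatives that kept all libraries. For Col1a2 it was 0.573, or 0.0116 without KI3, and 0.0445 to 0.889 over those alternatives, and for Dcn 0.969, or 0.037 without WT3, and 0.541 to 0.999. Lum, Slc6a13 and Aldh1a2 had at most 9 reads in any library and were not tested. The part of meningeal tissue in the Pdgfra reads was not tested. Its exons share 5.57% of their 31-base words with another gene, most of them with Gm42802, which was not analysed here.

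Cspg4 (ENSMUSG00000032911, plus strand of chromosome 9, 56865033 to 56899870), the NG2 proteoglycan of oligodendrocyte precursors and of pericytes, had 116 and 104 reads in cKI and 119 and 107 in WT. The libraries of both groups lay between 5.74 and 6.76 CPM, interleaved. The fitted difference was a log2 fold change of -0.07 (SE 0.19, 95% interval -0.49 to 0.36, adjusted p = 0.994), and 0.03 without KI3 and 0.01 without WT1. Pericyte markers summed to 137.4 and 145.5 CPM in cKI and 160.8 and 147.8 CPM in WT. Of 8 tested out of 9, 0 passed the adjusted threshold and 1 was lower in cKI at an unadjusted p under 0.05, while 6 had estimates below 0 and 7 had groups that did not overlap, against 33.9% of all tested genes. The most abundant per kb was Notch3, at 1324 and 1504 reads in cKI and 1454 and 1221 in WT, and Acta2 had at most 5 reads in any library. The gene with the low p was Rgs5, named after its values were seen, at 524 and 495 reads in cKI and 672 and 648 in WT. How many of the Cspg4 reads came from pericytes was not tested.

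Below the NFI genes, the order per kb by the mean over all libraries was Aldh1l1, Olig2, Olig1, Cspg4, Sox10, Pdgfra and Gfap, while in cKI alone, and by the longest transcript, the last 3 ran Gfap, Pdgfra and Sox10. Aldh1l1 stood at 1.68 ± 0.28 CPM per kb in cKI and 2.94 ± 0.908 in WT, and its libraries overlapped in range with those of Olig2 in cKI and lay above them in WT. Olig2 and Olig1 did not differ beyond their spread. Cspg4, at 0.515 ± 0.0474 and 0.540 ± 0.0364, was separated from the genes on either side. Sox10 (0.202 ± 0.106 and 0.271 ± 0.0376), Pdgfra (0.217 ± 0.0269 and 0.236 ± 0.022) and Gfap followed, and neighbours in this order did not differ beyond their spread. These last 3 lay above only 5.1%, 4.7% and 4.3% of the tested genes with a known length. The 5 oligodendrocyte genes summed to 15.7 and 15.3 CPM in cKI and 16.7 and 19.1 CPM in WT. For each read of the other 7 genes there were 148 and 134 reads of the NFI genes in cKI and 117 and 93 in WT. This ratio was thus higher in both cKI libraries, and Aldh1l1 is the most counted of the 7. The summed NFI genes themselves overlapped between the groups, at 3470 and 3340 CPM in cKI and 3253 and 3367 CPM in WT.

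Other regulators of the switch gave 0 calls at the adjusted threshold among 29 tested of 32, with edgeR's quasi-likelihood test and with DESeq2. At an unadjusted p under 0.05, 3 were higher in cKI and 0 lower, against 2.26% and 2.34% of all tested genes, and the median log2 fold change was 0.04. The 3 were Stat3, the effector of gliogenic cytokines, Fgfr3, a receptor of radial glia and astrocytes, and Id3, an inhibitor of neurogenic factors downstream of BMP. Stat3 had 872 and 982 reads in cKI and 787 and 742 in WT, a log2 fold change of 0.25 (SE 0.09, adjusted p = 0.969). Fgfr3 had 2933 and 3309 reads in cKI and 2400 and 2654 in WT, a log2 fold change of 0.28 (SE 0.09, adjusted p = 0.969). Id3 had 349 and 375 reads in cKI and 231 and 309 in WT, a log2 fold change of 0.39 (SE 0.16, adjusted p = 0.969). In all 3 both cKI libraries lay above both WT libraries, which adds little, since they were chosen by p from the same counts. The groups did not overlap for 13 of the 29 tested regulators, against 33.9% of all tested genes. The most abundant regulators per kb were Lhx2, a factor that holds progenitors in the neurogenic phase, Dnmt1, the maintenance DNA methyltransferase, and Cntfr, a cytokine receptor subunit. Lhx2 had 11735 and 13362 reads in cKI and 10563 and 11174 in WT, with a log2 fold change of 0.18. For Dnmt1 and Cntfr the log2 fold changes were 0.03 and 0.14, with Dnmt1 below 0 without KI3 or WT3. The ligand genes Lif, Cntf and Bmp4 had at most 8 reads in any library and were not tested. The list summed to 2441 and 2575 CPM in cKI and 2375 and 2360 CPM in WT.

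Among other genes of the oligodendrocyte lineage, 25 of the 26 listed were in the table used here and 19 were tested. None passed the adjusted threshold with edgeR's quasi-likelihood test or DESeq2, and the median log2 fold change was -0.03. At an unadjusted p under 0.05, 3 were higher and 1 lower in cKI, against 2.26% and 2.34% of all tested genes. Bcan, the brevican core protein, had 2031 and 1976 reads in cKI and 1699 and 1628 in WT, a log2 fold change of 0.24 (SE 0.08, adjusted p = 0.969). Cnp, a myelin enzyme, had 243 and 261 reads in cKI and 196 and 201 in WT, a log2 fold change of 0.32 (SE 0.14, adjusted p = 0.969). Sox8, which acts beside SOX10, had 430 and 439 reads in cKI and 493 and 531 in WT, a log2 fold change of -0.26 (SE 0.10, adjusted p = 0.969). The groups did not overlap for any of these 3, which were chosen by p from the same counts, and Sox8 was the lower. Of the 19 tested genes 7 had groups that did not overlap, against 33.9% of all tested genes. Matn4, an extracellular matrix protein, had 13 and 13 reads in cKI and 2 and 1 in WT. That is a ratio of 8.47 in CPM, with an exact 95% counting interval of 2.6 to 43.7, and an adjusted p of 0.552. With the likelihood ratio test the adjusted p of Matn4 was 0.0168, and over the 8 alternatives that kept all libraries it ranged up to 0.999. Sox5, which like Bcan was among the most abundant of the list per kb, had a log2 fold change of -0.14, and an estimate above 0 without KI3. Enpp6, Mobp, Nkx2-2 and Nkx6-2 had at most 3 reads in any library, and the list summed to 831.9 and 717.1 CPM in cKI and 852.4 and 796.4 CPM in WT.

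Other astrocyte genes were tested in 16 of 18 cases, with 0 past the adjusted threshold by edgeR's quasi-likelihood test or by DESeq2. Their median log2 fold change was 0.08. At an unadjusted p under 0.05, 3 were higher and 1 lower in cKI, against 2.26% and 2.34% of all tested genes. Fgfr3, described above, was 1 of the 3. Apoe, the lipid carrier apolipoprotein E, had 842 and 875 reads in cKI and 596 and 731 in WT, a log2 fold change of 0.34 (SE 0.12, adjusted p = 0.969). Clu, which encodes clusterin, had 615 and 645 reads in cKI and 449 and 527 in WT, a log2 fold change of 0.34 (SE 0.11, adjusted p = 0.969). Sparcl1, a secreted matrix protein, had 725 and 761 reads in cKI and 842 and 951 in WT, a log2 fold change of -0.30 (SE 0.10, adjusted p = 0.969). Of these, Sparcl1 had an estimate below 0 like Aldh1l1, and the others had estimates above 0. Fabp7, Aldoc and Glul, the most abundant per kb, had log2 fold changes of -0.06, 0.06 and -0.06, with Fabp7 above 0 without WT3. The list summed to 1551 and 1594 CPM in cKI and 1475 and 1640 CPM in WT, and Agt had at most 1 read in any library. Serpina3n, a mouse gene related to the human transgene and made by reactive astrocytes, had 1 read in WT3 and 0 in the other libraries.

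Markers of other cell types showed 0 calls at the adjusted threshold. Endothelial markers, led per kb by Cldn5, summed to 81.9 and 91.4 CPM in cKI and 93.4 and 88.7 CPM in WT, with 0 of 6 at an unadjusted p under 0.05. Microglia markers, led per kb by C1qa, summed to 28.4 and 30.5 CPM in cKI and 34.3 and 33.2 CPM in WT, with 1 of 7 lower, Cx3cr1. Blood markers, led per kb by Hbb-bs, summed to 489.6 and 366.0 CPM in cKI and 491.4 and 522.2 CPM in WT, with 6 of 6 estimates below 0. At an unadjusted p under 0.05, 3 of 6 were lower, against 2.34% of all tested genes. These were Hba-a2, Hbb-bt and Alas2, named like Cx3cr1 after their values were seen. With all libraries Hbb-bs, Hba-a2 and Hbb-bt had an adjusted p of 0.969, against 0.0125 for Hbb-bs without KI2, 0.0303 for Hba-a2 without KI3 and 0.0368 for Hbb-bt without WT1; over the alternatives that kept all libraries they ranged from 0.889 to 1.0, 0.771 to 0.999 and 0.694 to 0.999. The sums of the blood markers in KI2 and WT1 were nearly level, and C1qa had a log2 fold change of 0.22 while the microglia sum was lower in both cKI libraries. Cortical markers summed to 6917 and 6622 CPM in cKI and 7090 and 7137 CPM in WT. The part of these differences in the values of the glial genes was not tested.

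**Figure D3:**
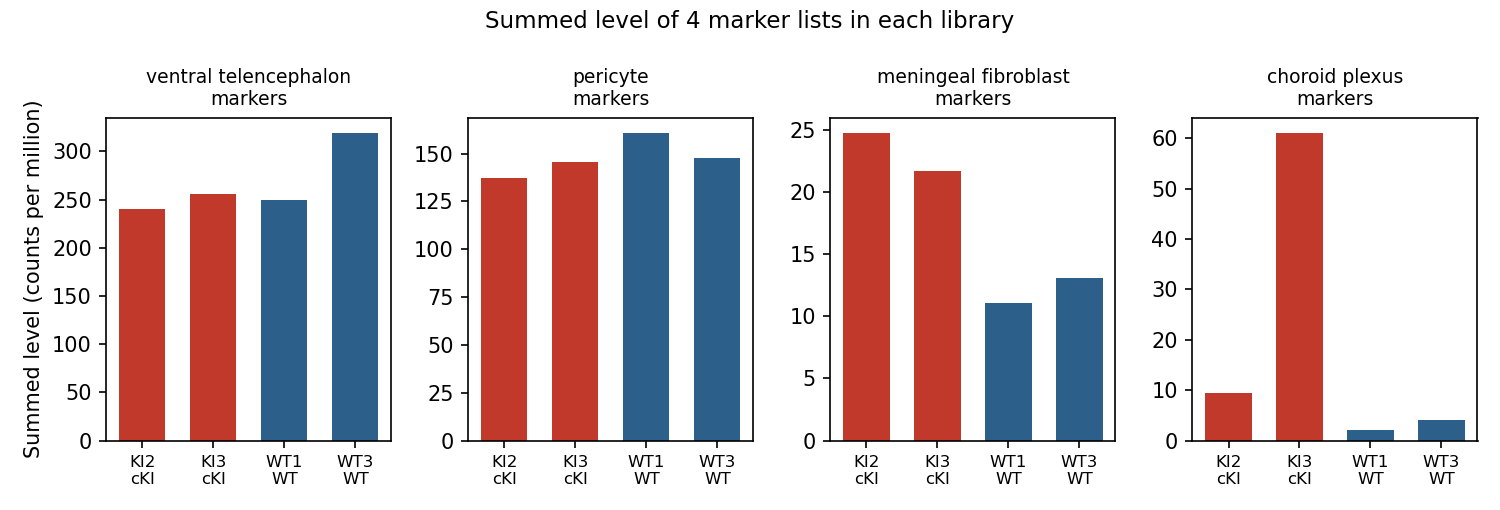
Summed level of the ventral telencephalon, pericyte, meningeal fibroblast and choroid plexus markers in each library, in CPM; each bar is a library, red for cKI and blue for WT, and the vertical scale differs between panels. Ventral telencephalon markers are highest in WT3 (319.3 CPM), meningeal markers are higher in both cKI libraries, and choroid plexus markers are highest in KI3 (61.0 CPM).

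Genes next to the 10 were compared to see whether their surroundings moved with them. Of the 18 tested nearest neighbours that are not themselves among the 10, 0 passed the adjusted threshold and 0 had an unadjusted p under 0.05, with log2 fold changes from -1.23 to 0.50. The lowest was Gsx2, which lies 74.4 kb from Pdgfra, and the highest was Gm12676, 15.3 kb from Nfia with at most 14 reads in any library. Beside Aldh1l1 lie Gm44421, 6.7 kb away with a log2 fold change of -0.71 from at most 15 reads in any library, and Slc41a3, 4.5 kb away with -0.03. Polr2f, 3.1 kb from Sox10, and Trmt1, 0.1 kb from Nfix, had log2 fold changes of 0.11 and -0.04. Ccdc103 and Kif18b, on either side of Gfap, had -0.30 and 0.06. The small estimates of Slc41a3, Polr2f and Kif18b changed sign when 1 library was left out.

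RefSeq promoter windows on GRCm38.p6, from 250 bases before to 50 after a start, were at hand for 7 of the 10 genes, in 10 windows. Olig1, Sox10 and Nfib had none in the table. The full NFI site, TTGGC and then GCCAA after 5 bases of any kind, searched on both strands like the other motifs, was in 0 of the 10 windows and in 0.0365% of all 32851 promoters. The single NFI arm TTGGC, which the full site contains, was found in 3 of the 4 Nfix windows and in those of Cspg4 and Olig2, with 3 matches in Olig2, and in 46.7% of all promoters. The E-box CANNTG, the kind of site that OLIG proteins bind, was in the windows of Nfia, Pdgfra, Aldh1l1 and 2 of Nfix, and in 72.3% of all promoters. Only the windows of Pdgfra, Cspg4 and Olig2 hold the start of the gene as placed in the count table. The Nfia window lies 190.7 kb before that start, inside E130114P18Rik, and the others lie inside their genes, 64.11 kb past the start for Aldh1l1, 20.01 to 27.22 kb for Nfix and 3.46 kb for Gfap. The STAT site TTCNNNGAA was in the window of Gfap and in 1 of Nfix, and in 8.3% of all promoters. The Gfap window, chr11:102897151-102897450 on the minus strand, is shown because Gfap is the target gene of the switch among the 10, with the STAT match in capitals. A match is a description of letters and shows no binding.
Gfap: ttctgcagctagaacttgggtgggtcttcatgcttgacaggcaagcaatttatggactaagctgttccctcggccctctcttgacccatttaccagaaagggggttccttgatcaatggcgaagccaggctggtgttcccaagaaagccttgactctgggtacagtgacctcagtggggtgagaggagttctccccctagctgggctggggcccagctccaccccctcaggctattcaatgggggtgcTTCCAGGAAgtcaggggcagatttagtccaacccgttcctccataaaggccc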

How the data were processed

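The deposited table holds raw counts per gene, which the authors made; the submitters' processing notes name Bowtie2 2.2.3, TopHat2 2.0.12, HTSeq 0.6.0 and the build mm9, while genes lie in the table at their GRCm38 coordinates. The strand setting of the counting is not given in the sources used here. Its columns with the authors' own comparison (mean, fold change, p-values and calls) and annotation were not used. Column names give the group but not which labelled sample they are, so columns were assigned to groups only, 2 each; the labels speak of triplicates, and 2 libraries per group were analysed here. Libraries of a group differed by more than sampling noise (chi-square per degree of freedom 5.63 in cKI and 7.49 in WT).

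Counts were fitted across all genes with edgeR 4.0.16 in R 4.3.3 (TMM, filterByExpr, quasi-likelihood F test, group as the only term). P-values were adjusted by Benjamini-Hochberg over 15786 genes, with a threshold of 0.05, and the common biological coefficient of variation was 8.72%. The standard error is the log2 fold change over the square root of F, and 95% intervals use the t distribution. CPM uses library totals, and levels per kb use the exon union in GENCODE M21, where 8 of the 10 genes have the same position as in the table and Olig2 and Sox10 have other ends. Shared words were counted over GENCODE M21 transcripts, and tables and plots were made with Python 3.11.15. The fit was repeated with other scalings and filters, with DESeq2 1.42.0, with the likelihood ratio test of edgeR, without chromosomes X and Y, with the reads of overlapping genes of the other strand added and without each library, and levels with the longest transcript.

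The 10 genes and all lists were chosen with earlier results of these data known. Companion lists were the switch regulators, other oligodendrocyte lineage genes and other astrocyte genes; marker lists were cortical, radial glia, ventral telencephalon, pericyte, meningeal fibroblast, endothelial, microglia, blood, choroid plexus, peripheral glia and sex-linked genes, and 163 of 164 listed genes were in the table used here. Named were the 10 genes, from each companion list the 3 most abundant per kb and those with an unadjusted p under 0.05, from each marker list the most abundant gene and those past the adjusted threshold, overlapping genes and nearest tested neighbours, and Serpina3n; 2 listed genes are not reported here. Nfic was added to complete the NFI family, and other companion and marker genes were named after their values were seen, among them Emx2 and those said so where they appear. Genes of like pattern were not searched for, since 4 libraries give too few points.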

Additional observations from a re-analysis of the deposited data

How the results depend on the processing

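The 10 glial genes gave 0 calls with DESeq2, the likelihood ratio test, 3 other scalings, 2 other filters, without chromosomes X and Y and with overlapping genes of the other strand added; their count was 0 to 1 when each library was left out, the 1 being Aldh1l1 without WT1. With fewer than 10 counts in a library, Sox10 dropped out under the stricter filter. Over the 9 settings that kept all libraries, 0 of 754 log2 fold changes of these genes, their neighbours and the other genes named changed sign, and 4 passed the threshold only there (Matn4, Ttr, Col1a1 and Col1a2 with the likelihood ratio test). These settings reuse the same counts, and the TMM factors lay between 0.9946 and 1.0026, so few changes of sign could arise from them. Leaving out each library moved the log2 fold change over these ranges: Nfix 0.07 to 0.20, Nfib -0.15 to 0.04, Nfia -0.09 to -0.02, Gfap 0.09 to 0.73, Aldh1l1 -1.08 to -0.44, Olig1 -0.64 to 0.02, Olig2 -0.61 to -0.06, Sox10 -1.09 to 0.04, Pdgfra -0.26 to 0.01 and Cspg4 -0.18 to 0.03. The median over the 10 ranged from -0.16 to 0.02. Of the 77 other genes with a fitted value that the text names or that lie beside the 10, 24 changed sign without 1 library: Dand5 -0.32 to 0.31, Dlx1 -0.32 to 0.04, Dlx5 -0.51 to 0.13, Dlx6 -1.15 to 0.40, Dnmt1 -0.05 to 0.12, Fabp7 -0.22 to 0.11, Folr1 -0.18 to 2.21, G430095P16Rik -0.47 to 2.17, Gad1 -0.13 to 0.21, Gm26668 -0.08 to 0.93, Isl1 -4.58 to 0.12, Kif18b -0.07 to 0.17, Kit -0.14 to 0.21, Lhx6 -0.18 to 0.12, Lingo1 -0.15 to 0.21, Mpdz -0.19 to 0.08, Notch3 -0.06 to 0.18, Otx2 -1.16 to 1.08, Polr2f -0.01 to 0.25, Slc41a3 -0.35 to 0.39, Snx33 -0.02 to 0.26, Sox5 -0.34 to 0.02, Tubb3 -0.11 to 0.09, Zdhhc21 -0.12 to 0.07. Genes called over the whole table numbered 6 under the stricter filter of 10 counts in each library, where fewer genes were tested, 54 by likelihood ratio, 11 without chromosomes X and Y, and 46 to 71 when each library was left out; DESeq2 gave 27. Other oligodendrocyte lineage genes gave 1 call with the likelihood ratio test (Matn4). The cause of these changes was not tested. With the length of the longest transcript, levels in cKI and WT were 324 and 296 CPM per kb for Nfix, 137 and 142 for Nfib, 40.0 and 41.4 for Nfia, 0.756 and 0.794 for Cspg4, 0.319 and 0.347 for Pdgfra, and 0.390 and 0.302 for Gfap, because that length is shorter; Gfap then stood 8th, Pdgfra 9th and Sox10 10th in the order. No paired analysis was possible because KI3 and WT3 alone carry a common number, which no source used here ties to a litter or batch, and KI2 and WT1 have no partner. Gfap, Sox10 and Pdgfra had 7 to 44 reads a library, and their intervals allow differences of 1.43-fold or more in either direction. The parts of read depth and of spread between libraries in that width were not tested.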
